A study of Monodelphis domestica and Mus musculus with 2 samples.

Results

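Voltage-gated sodium and calcium channels open when the membrane depolarises. Sodium channels are built on one large pore-forming alpha subunit with small beta subunits beside it, and their current carries the action potential. Calcium channels are built on a pore-forming alpha1 subunit, most with an extracellular alpha2delta and a cytosolic beta subunit, and their current triggers transmitter release, dendritic spikes and calcium signalling to the nucleus, while most brain members of the gamma family act as auxiliary subunits of AMPA receptors. The genes described here were all features whose symbol, with case ignored, was Scn followed by digits and a or b, or began with Cacna1, Cacna2d, Cacnb or Cacng, and that were found in more than 8 cells of a section. This gave 25 of the 26163 opossum features and 40 of the 39576 mouse features found in more than 8 cells, and 24 of the opossum symbols were also members in the mouse. The feature nearest above the limit in the opossum was CACNG1, the muscle gamma subunit, found in 14 cells, and the mouse Cacng1, found in 6 cells, was left out. No opossum feature carried symbols such as SCN8A, CACNA1D, CACNA1G, CACNA1I, CACNA2D2, CACNB3, CACNG7 or CACNG8, so none of them was analysed in that species.

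The measurements came from Stereo-seq, in which polyadenylated RNA of a tissue section is captured on a chip of barcoded spots and unique molecular identifiers (UMIs) are summed over segmented cells. One 10 µm section per species was read, cut through a block in which more than 1 coronal slice was embedded. The opossum slices were 2 mm thick, from an adult male gray short-tailed opossum (Monodelphis domestica) aged about 6 months. The mouse slices were 1 mm thick, from a male C57BL/6J mouse at about postnatal day 40. The study counts its V1 regions as coming from more than 1 coronal section in each species. The mouse was wild type and no treatment is named for either animal. Each group was 1 animal, so the species are given side by side without a test between them. The primary visual cortex (V1) was taken as the cells of the study's V1 regions that passed its filter, 4806 cells in 3 regions of the opossum and 9127 cells in 4 regions of the mouse, with a median of 1326 and 1305 UMIs per cell. RNA integrity, measured on shavings of the tissue block, was 7.1 for the opossum and above 9 for the mouse, and no V1 cell name was shared by the sections.

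Levels are UMIs per 10000 UMIs of the same cells, with 95% Poisson intervals, and ratios of levels carry exact conditional intervals at 95%. Both cover counting error only, and the V1 regions describe the spread within 1 animal, across coronal slices cut together. Shares of cells carry Clopper-Pearson intervals at 95%. These take the cells of 1 animal as separate draws and do not cover the spread between animals. Subclass labels were transferred by the study's authors from single-nucleus profiles of the same species, using the counts themselves, so a gene's level by subclass is a description. Position along a region does not depend on the labels, but its direction does. The side along which L6CT cells lay farthest from IT_A or L2/3 cells was taken as depth. Its end toward the IT_A or L2/3 cells was called the top. The IT labels are intratelencephalic glutamatergic neurons, PT the pyramidal tract, NP the near-projecting and CT the corticothalamic type, and OD and OPC are oligodendrocytes and their precursors. Markers of one class were also counted in cells labelled as another. In mouse V1, Slc17a7, the vesicular transporter that marks glutamatergic neurons, was at 0.941 times its non-neuronal level in neuronal cells, while the myelin gene Mbp was at 0.568. In the opossum, MBP was at 0.514 and the astrocyte transporter SLC1A2 at 0.328 of their non-neuronal level in neuronal cells. GAD1, which makes GABA, was 4.78-fold higher in GABAergic than in glutamatergic cells of the opossum and 2.76-fold higher in the mouse. The part of this overlap in the ratios of single genes was not tested.

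The longest stretch in which calcium channel genes with at least 200 V1 UMIs cannot be told apart is shown here because the T-type genes Cacna1g and Cacna1i are set side by side below. Read in the direction of transcription, exon 11 of mouse Cacna1g (GRCm39 chr11:94334013-94334080, minus strand) and exon 12 of Cacna1i (chr15:80253889-80253956, plus strand) share an identical coding run of 68 bases.
Cacna1g and Cacna1i: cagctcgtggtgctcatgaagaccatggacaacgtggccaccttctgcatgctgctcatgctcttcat
An aligned part of a read that lay wholly inside this run could belong to either gene. The read length that the study names is greater than the run, so a full read would reach past it. In the other calcium channel groups, the longest identical run between mouse members with at least 200 V1 UMIs was 40 bases in the gamma subunits, 23 in the beta subunits and 15 in the alpha2delta subunits. The sodium channel alpha genes are also close to each other in sequence, and how reads were divided between them was not tested.

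Together the family made up 43.9 UMIs per 10000 in opossum V1 (43.4 to 44.4, 41.6 to 45.2 across regions) and 37.9 in mouse V1 (37.6 to 38.2, 37.5 to 38.1 across regions). A cell held a median of 5 family UMIs in the opossum and of 4 in mouse V1, from a median of 3 members in each, and 7.55% and 5.71% of the cells held none. These levels and counts are over 25 opossum and 40 mouse members, which are not the same set of genes. The mouse sum includes members without an opossum feature of that symbol, such as Scn8a at 3.35. By labelled subclass, the opossum family level was highest in IT_B (58.1, 54.9 to 61.4) and IT_A (53.4, 52.5 to 54.4) and lowest in endothelial cells (29.3, 25.4 to 33.6) and oligodendrocytes (31.3, 30.0 to 32.7). The mouse levels lay closer together, from 42.3 (41.5 to 43.1) in L4 and 41.3 (40.4 to 42.2) in L2/3 down to 32.7 (30.7 to 34.8) in endothelial cells. The upper part of V1, at a relative depth of at most 0.5, held a higher family level than the deeper part in both species, at 49.3 against 39.4 in the opossum and 40.6 against 35.4 in the mouse. Because a depth holds a mixture of cells, fewer cells of a type and less RNA per cell cannot be told apart in any comparison by depth.

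At least 200 V1 UMIs, the number asked for in comparisons by depth and class, were counted for 17 opossum and 27 mouse members. Each comparison was called at a ratio at least 25% above 1, or at 0.8 or less, and, by depth, with the same direction in every V1 region. Deep over upper, 5 of the 17 opossum members were lower and 1 was higher, against 10.1% and 10.6% of all features. In the mouse, 6 of the 27 were lower and 2 higher, against 8.48% and 6.51%. The median ratio of the members was 0.856 in the opossum, where all features stood at 1.02, and 0.946 in the mouse, where all features stood at 1.01. CACNA1B, CACNB2 and CACNA2D1 were higher in the upper part in both species. The split at 0.5 lay close to the median depth of opossum IT_B (0.485) but deeper than that of mouse L4 (0.338). The parts are therefore not matched by layer between the species. The myelin gene MBP had the opposite gradient, at 2.03 for the opossum and 1.85 for the mouse, and its part in the ratios of the members was not tested.

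**Figure D1:**
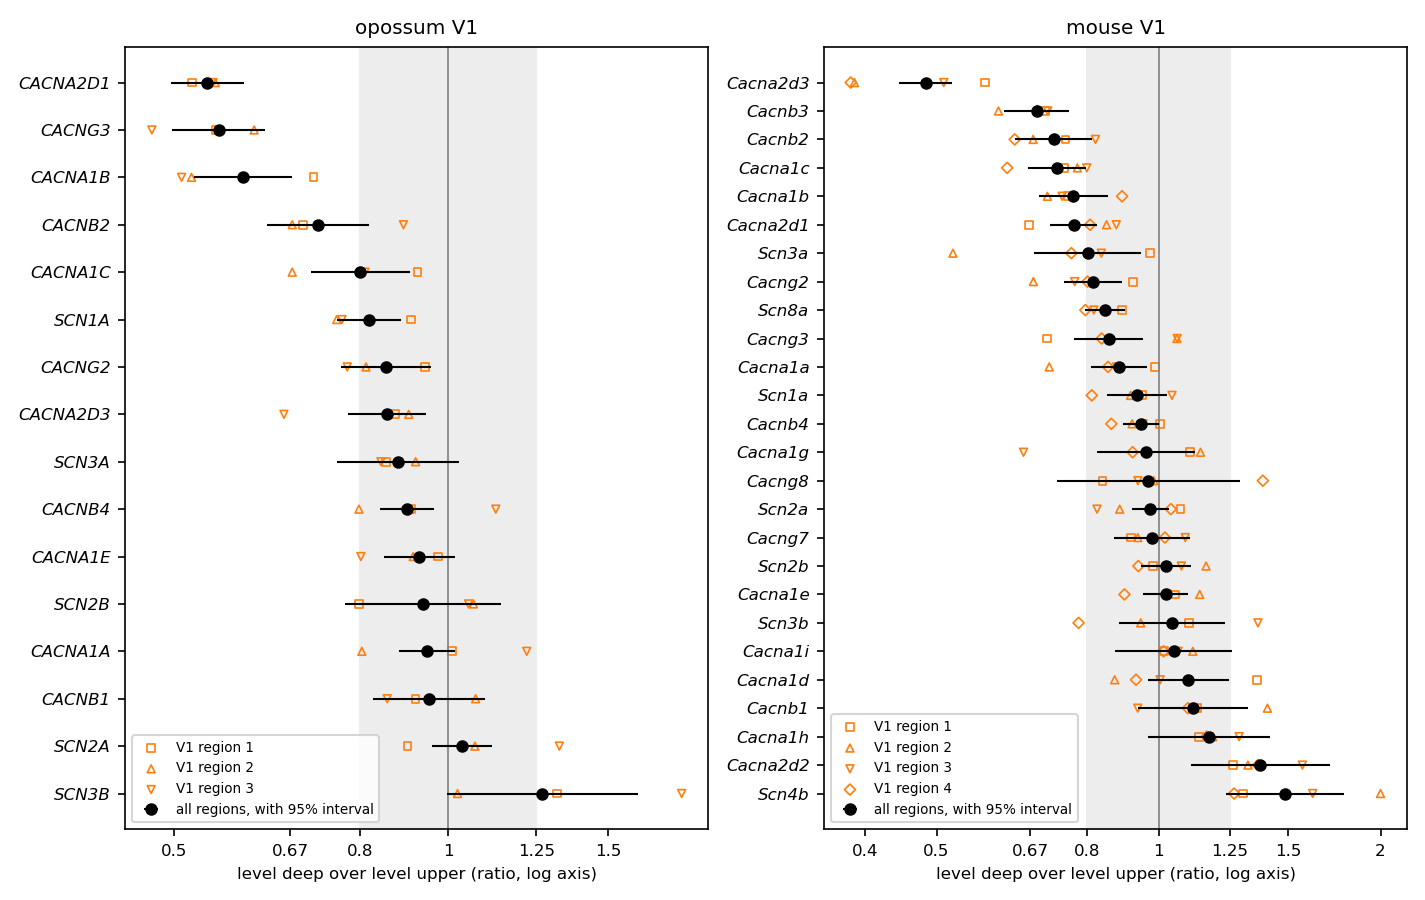
Ratio of the level in the deeper part of V1 over the upper part for named genes with at least 200 V1 UMIs (log axis). Black points are all regions with the 95% interval, orange marks are single V1 regions, and the grey band spans the ratios that were not called, from 0.8 to 25% above 1. Opossum CACNA2D1 at 0.544 and mouse Cacna2d3 at 0.483 lie farthest to the left.

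Some members were high at the top and bottom of V1 and low between, a shape that this ratio misses, so the outer bins were also set against the middle. This comparison was chosen after the profiles had been seen. With depth in 10 equal bins, the 2 bins at each end were compared with the 2 in the middle under the same rule. The middle bins did not centre on the same cell types in both species. Median relative depth was 0.485 for opossum IT_B, and 0.338 for L4 and 0.546 for L5PT in the mouse. A ratio of ends to middle therefore does not compare the same layers in the opossum and the mouse. In the opossum, 5 members were higher at the ends and 2 lower, against 13.0% and 10.8% of all features, and in the mouse 5 were higher and 6 lower, against 6.8% and 5.92%. CACNA1E, SCN3B, CACNG3 and CACNB2 were called higher over the pooled ends in both species, as were CACNA2D1 in the opossum and Scn3a in the mouse. Set against the middle one end at a time, CACNA1E was higher at the top and at the bottom in both species, at 2.14 and 2.46 for the opossum and 1.28 and 1.49 for the mouse. SCN3B was too, at 2.51 and 4.04 for the opossum and 1.41 and 1.38 for the mouse, as were opossum CACNG3 (3.02 and 1.66) and mouse Scn3a (2.15 and 1.55). For CACNB2 in both species, mouse Cacng3 and opossum CACNA2D1 the interval of the bottom over the middle included 1 or lay below it, and the top was the higher end.

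**Figure D2:**
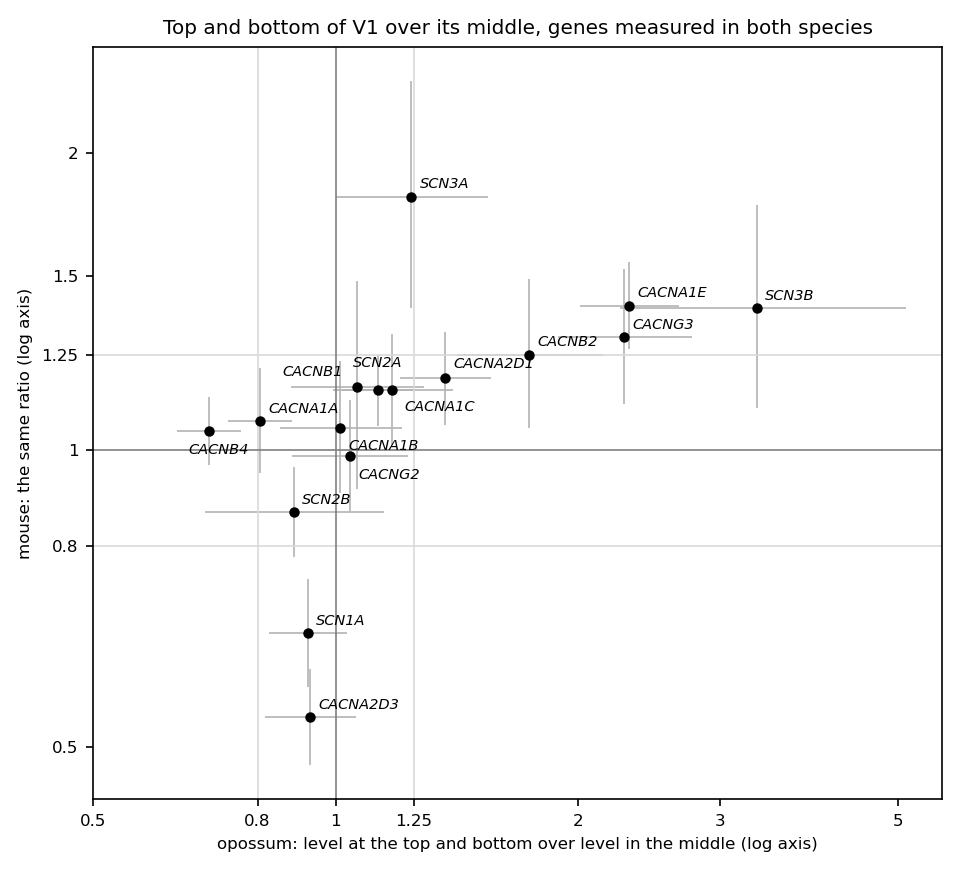
Level in the outer bins of V1 over the level in the 2 middle bins in the opossum (horizontal, log axis) and the mouse (vertical, log axis) for 16 genes with at least 200 V1 UMIs in both, with 95% intervals. SCN3B, CACNA1E, CACNG3 and CACNB2 lie at or above the calling limit in both with the ends pooled, and CACNA2D3 is low in the mouse alone, at 0.536 against 0.931. The middle bins are not matched by layer between the species.

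By subclass, a gene's level was set over that in all other labelled V1 cells, wherever at least 20 UMIs were expected in the subclass, and called at 1.5-fold. The interval was not part of this rule, so some values given below as low or high have an interval that includes 1. Of 174 such pairs of opossum member and subclass, 14 were higher and 47 lower, against 5.81% and 11.3% of all pairs. Of 287 mouse pairs, 12 were higher and 26 lower, against 3.01% and 6.61%. In the opossum, 10 of the 14 higher pairs were in IT_A and IT_B, against 30.9% of the higher pairs of all features, and in the mouse 4 of the 12 were in L2/3, against 14.2%. All 14 higher pairs of the opossum were in neuronal subclasses, as were all 12 of the mouse, where all features had 75.0% and 71.4% of theirs. The map of ratios by subclass shows this, with the opossum glial columns low in most rows.

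**Figure D3:**
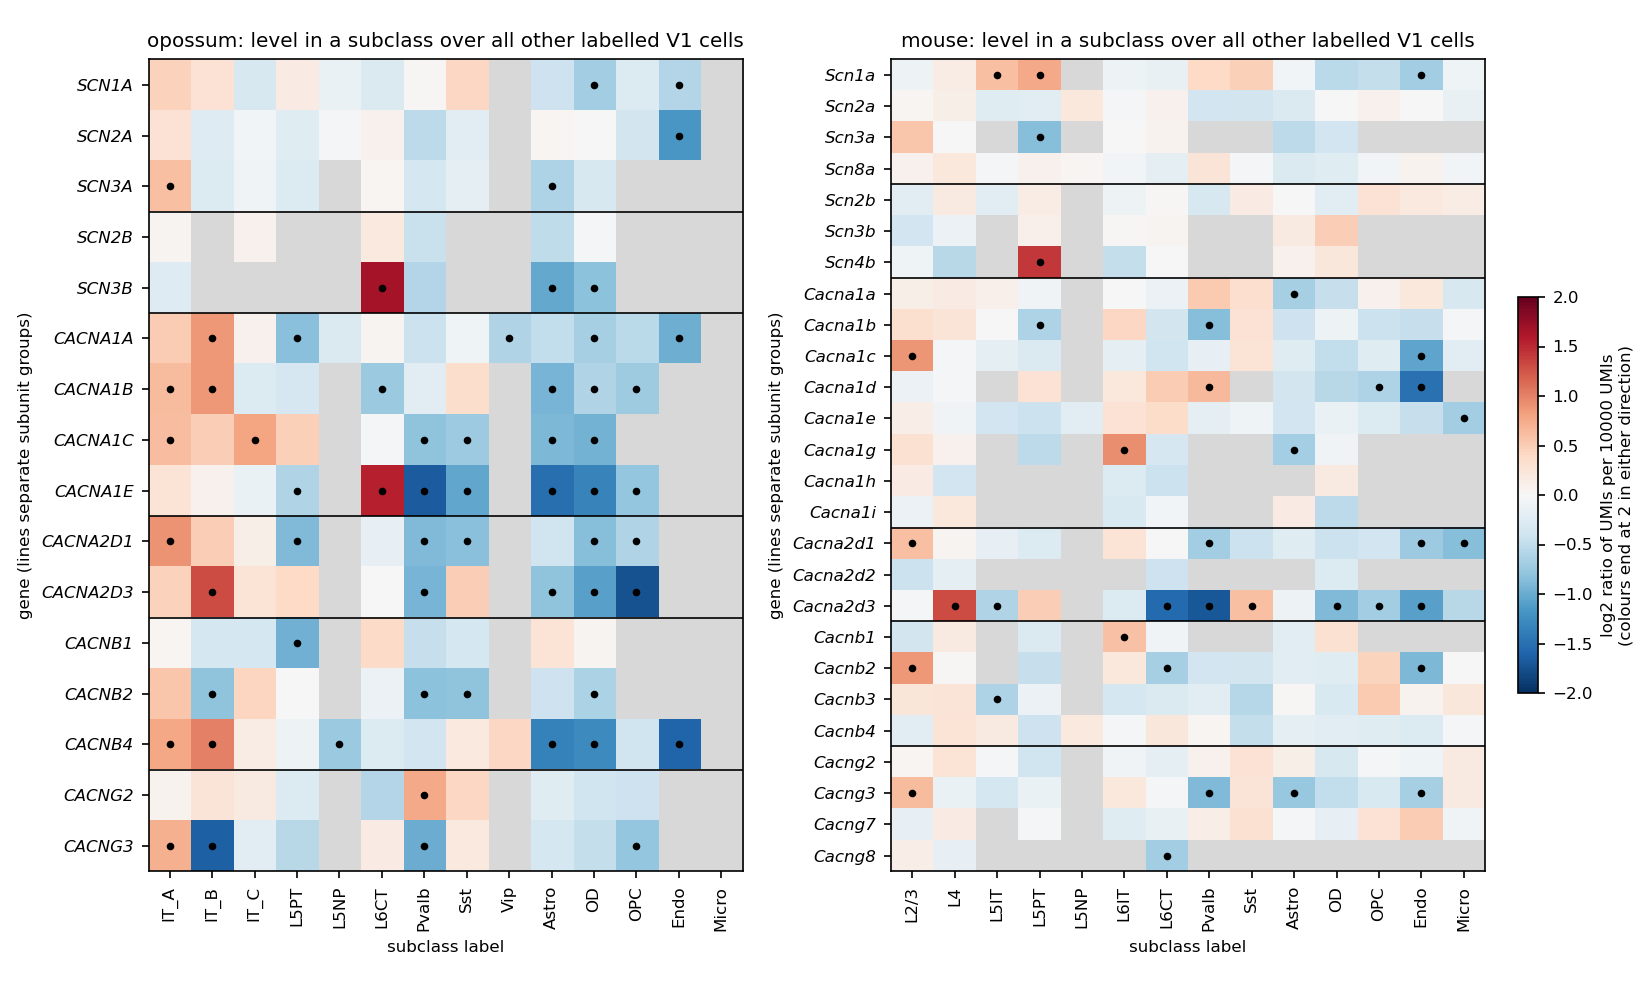
log2 ratio of the level of each gene (rows, grouped by subunit) in a subclass (columns) over all other labelled V1 cells, in the opossum and the mouse. Black dots mark ratios called at 1.5-fold, and grey cells had too few expected UMIs. The deepest reds are SCN3B and CACNA1E in opossum L6CT (3.15 and 2.92), Scn4b in mouse L5PT (2.65), and CACNA2D3 in opossum IT_B and mouse L4 (2.47 each).

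Among the sodium channel alpha subunits, SCN2A, which carries sodium current mainly in excitatory neurons, gave the most UMIs of the group in the opossum and in the mouse. Its level was 3.95 in the opossum (3.68 to 4.21 across regions) and 3.65 in the mouse (3.48 to 3.92), and it was lower in GABAergic than glutamatergic cells in both, at 0.699 (0.610 to 0.797) and 0.783 (0.669 to 0.912). It was also low in opossum endothelial cells, at 0.448 (0.231 to 0.784), on 12 UMIs. By depth its ratio was near 1, at 1.04 for the opossum and 0.975 for the mouse.

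SCN1A, the alpha subunit of fast-spiking interneurons and of epilepsy genetics, was higher in neuronal than non-neuronal cells in both species, at 1.55 (1.39 to 1.73) in the opossum and 1.33 (1.16 to 1.53) in the mouse. Between GABAergic and glutamatergic cells it was called in neither species, with an opossum ratio of 1.03 (0.913 to 1.16). In the mouse it was called higher in both layer 5 projection types, at 1.69 (1.39 to 2.05) in L5PT and 1.52 (1.10 to 2.04) in L5IT, and it was low in endothelial cells (0.621, 0.408 to 0.907). The mouse level rose from 1.11 in the uppermost bin to 1.96 in the sixth and fell to 0.893 in the last, with the ends at 0.652 of the middle (0.575 to 0.740, and 0.584 to 0.761 across regions). The opossum gene was low in oligodendrocytes, at 0.619 (0.522 to 0.729), and in endothelial cells, at 0.665 (0.380 to 1.08), and had no such middle peak, with a ratio of ends to middle of 0.924 (0.827 to 1.03).

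SCN3A, an alpha subunit best known from the developing brain, was higher in neuronal cells, at 1.51 (1.22 to 1.87) in the opossum and 1.30 (1.02 to 1.66) in mouse V1, and lower in GABAergic cells, at 0.718 (0.549 to 0.926) and 0.674 (0.407 to 1.06). The mouse interval includes 1. Opossum IT_A was high (1.51, 1.29 to 1.77) and astrocytes low (0.650, 0.458 to 0.899), and mouse L5PT was low (0.553, 0.293 to 0.956). At the ends of mouse V1 it was 1.81-fold higher than in the middle (1.39 to 2.37, between 1.49 and 2.46 across the 4 regions), and in the opossum 1.24-fold (1.00 to 1.55). Scn8a, the alpha subunit of axon initial segments and nodes of Ranvier, had 4190 mouse UMIs and was called in no comparison.

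The other alpha subunits are known mainly from heart, muscle, glia or peripheral sensory neurons and were rare. In opossum V1, SCN11A had 17 UMIs and SCN10A had 9. In mouse V1, Scn9a had 51 UMIs, Scn7a 14, Scn10a 11, Scn11a 8 and Scn4a 6. These counts are too low for a comparison by depth or class.

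Of the sodium channel beta subunits, SCN3B was highest in opossum L6CT cells among the subclasses with enough UMIs, at 1.00 against 0.318 in the others, a ratio of 3.15 (2.45 to 4.05) that ranged from 2.96 to 4.21 across regions. By bin, the opossum level was 0.714 at the top, 0.149 in the seventh bin and 1.13 at the bottom, on 50, 11 and 90 UMIs. The ends were 3.34-fold above the middle (2.26 to 5.11), and the top bin was lower in region 3 (0.379) than in regions 1 and 2 (0.751 and 0.824). Its deep over upper ratio, the 1 called higher in the opossum, was 1.27 with an interval that includes 1 (0.998 to 1.62), and it fell under the limit without region 1 (1.22) or region 3 (1.18). It was low in opossum astrocytes (0.492, 0.259 to 0.856) and oligodendrocytes (0.566, 0.325 to 0.925), higher in neuronal cells (1.59, 1.15 to 2.25) and lower in GABAergic cells (0.685, 0.447 to 1.01). In the mouse the same gene ran the other way between neuronal and non-neuronal cells, at 0.792 (0.645 to 0.979). This value is close to the limit, and the call was lost with labels of the first round only and without V1 region 4. The ends of mouse Scn3b were 1.39-fold above the middle (1.10 to 1.77).

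Scn4b (GRCm39 chr9:45049595-45065452, plus strand), the beta subunit tied to resurgent sodium current in fast-firing neurons, was high in layer 5 of the mouse. Its level was 0.922 in L5PT against 0.348 in the other cells, a ratio of 2.65 (1.91 to 3.61) and between 1.84 and 4.08 across regions. By bin it went from 0.107 at the top to 0.877 in the sixth bin and back to 0.227 at the bottom. The ends were at 0.398 of the middle (0.312 to 0.507) and the deeper part at 1.48 of the upper (1.24 to 1.78). Within glutamatergic cells alone the deep over upper ratio was 1.65. The opossum gene had only 52 V1 UMIs. SCN2B, a beta subunit linked to the alpha subunit by a disulfide bond, had 412 opossum and 2600 mouse UMIs and was called in no comparison of either species. An antisense transcript that overlaps mouse Scn2b, Gm10684, had 1516 UMIs, and whether the counting used strand is not given in the sources used here.

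Of the calcium channel alpha1 subunits, CACNA1E, which carries R-type current, was called more often than any other opossum alpha1 subunit. Its level was 6.47 in L6CT against 2.21 in the other labelled cells (2.92, 2.65 to 3.22), with region values of 1.66 to 3.55. It was lower in Pvalb cells (0.316, 0.236 to 0.415), Sst cells (0.484, 0.332 to 0.682), astrocytes (0.353, 0.270 to 0.452), oligodendrocytes (0.396, 0.313 to 0.494), oligodendrocyte precursors (0.584, 0.369 to 0.879) and L5PT (0.662, 0.481 to 0.889). The L5PT value rested on region 1, since without it the ratio was 1.07. In GABAergic cells as a whole it was at 0.298 of the glutamatergic level (0.241 to 0.366), and in neuronal cells 2.88-fold above the non-neuronal (2.47 to 3.38). With each cell thinned to 300 UMIs, 10.9% of L6CT cells (8.42 to 13.8, Clopper-Pearson) held a CACNA1E UMI, against 3.48% of oligodendrocytes (2.11 to 5.38) and 1.46% of Pvalb cells (0.476 to 3.38). Unthinned, the shares were 29.9%, 9.38% and 9.04%, at median depths of 1751, 1077 and 1499 UMIs.

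By depth, opossum CACNA1E was at 3.93 in the uppermost bin, 1.32 in the sixth and 5.14 in the last, on 275, 92 and 409 UMIs. The ends were 2.31-fold above the middle (2.01 to 2.67), and each region gave 1.91 or more. Region 3 differed at the top, where its first bin was at 1.06 and the third at 4.08. The same shape was present among glutamatergic cells alone, at 4.61, 1.90 and 7.21 in those bins. In the mouse the shape was shallower, at 2.73, 2.10 and 3.01, with the ends 1.40-fold above the middle (1.27 to 1.55, and 1.26 to 1.54 across regions). Mouse Cacna1e gave the most UMIs of its group (3202), was higher in neuronal cells (1.29, 1.17 to 1.43) and was low in microglia (0.620, 0.446 to 0.840).

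**Figure D4:**
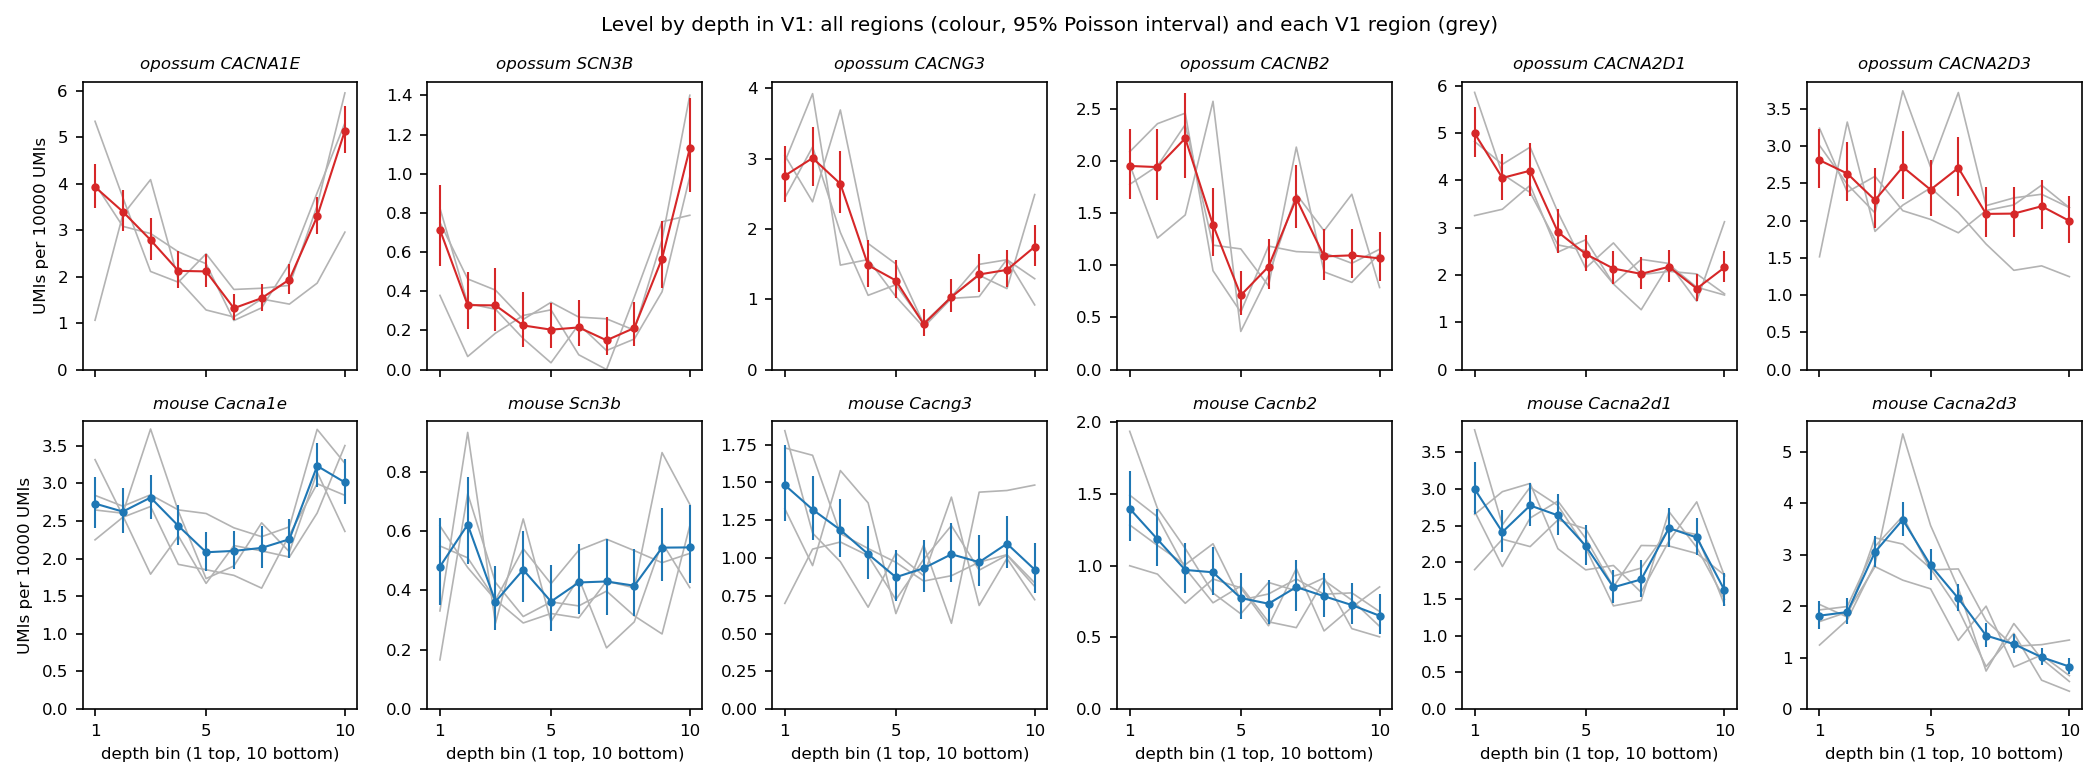
Level (UMIs per 10000 UMIs) of 6 genes in 10 equal depth bins of V1 from top (1) to bottom (10), opossum above and mouse below, each on its own scale. Coloured points are all regions with 95% Poisson intervals and grey lines are single V1 regions. Opossum CACNA1E and SCN3B are high at both ends, and mouse Cacna2d3 peaks at 3.68 in the fourth bin.

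CACNA1A and CACNA1B, the P/Q-type and N-type channels of presynaptic terminals, were both high in opossum IT_B, at 1.82 (1.56 to 2.13) and 1.82 (1.37 to 2.37). CACNA1A gave the most UMIs of the opossum alpha1 subunits (3164). It was low in opossum L5PT (0.560, 0.428 to 0.720), oligodendrocytes (0.632, 0.546 to 0.728), endothelial cells (0.507, 0.289 to 0.825) and Vip cells (0.656, 0.367 to 1.08, on 15 UMIs). Between GABAergic and glutamatergic cells it went in opposite directions, at 0.694 in the opossum (0.616 to 0.780) and 1.26 in the mouse (1.05 to 1.51). It was higher in neuronal cells in both, at 1.60 (1.46 to 1.77) and 1.28 (1.13 to 1.45), and low in mouse astrocytes (0.633, 0.482 to 0.817). Mouse Cacna1a overlaps Gm16183 on the opposite strand, which had 304 UMIs beside its 2092.

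CACNA1B was higher in the upper part of both species, with a deep over upper ratio of 0.595 (0.525 to 0.674) in the opossum and 0.767 (0.689 to 0.853) in the mouse. Region values were 0.509 to 0.711 and 0.707 to 0.892, all below 1. In the opossum it was also high in IT_A (1.55, 1.37 to 1.75) and in neuronal cells (1.70, 1.43 to 2.03), and low in L6CT (0.598, 0.480 to 0.737), astrocytes (0.527), oligodendrocytes (0.659) and precursors (0.609, 0.323 to 1.05). With the labels of the first round alone, the opossum IT_B ratio of CACNA1B turned to 0.813. Mouse Cacna1b was low in L5PT (0.652, 0.457 to 0.904) and Pvalb cells (0.552, 0.321 to 0.888), but with first-round labels the Pvalb ratio was 1.21.

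The L-type channels CACNA1C and CACNA1D couple depolarisation to gene expression. Opossum CACNA1C was higher in neuronal cells (2.12, 1.75 to 2.59) and lower in GABAergic cells (interval of the ratio 0.392 to 0.631), and was high in IT_C (1.73, 1.39 to 2.13) and IT_A (1.53, 1.34 to 1.74). It was low in astrocytes (0.538), oligodendrocytes (0.517), Pvalb cells (0.573) and Sst cells (0.605). Mouse Cacna1c was 1.85-fold higher in L2/3 (1.66 to 2.06, between 1.36 and 2.08 across regions), higher in neuronal cells (1.40, 1.23 to 1.60) and low in endothelial cells (0.483). Its deep over upper ratio was 0.729 (0.665 to 0.798) with 0.623 to 0.799 across regions, while the opossum value was 0.801 (0.706 to 0.908). Mouse Cacna1d was higher in neuronal cells (1.52, 1.26 to 1.85) and in Pvalb cells (1.57, 1.08 to 2.21, on 34 UMIs, with region values of 0.893 to 2.01), and low in endothelial cells (0.357) and oligodendrocyte precursors (0.651, 0.354 to 1.10).

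The T-type channels, which open near rest and support burst firing, were measured mainly in the mouse. Cacna1g was high in L6IT, at 0.975 against 0.512 (1.90, 1.45 to 2.47), and low in astrocytes (0.622, 0.371 to 0.980). Its GABAergic over glutamatergic ratio of 0.769 (0.497 to 1.14) rested on 1 region, since without region 1 it was 1.05. Cacna1i was higher in neuronal cells (1.35, 1.03 to 1.78) and, with an interval that includes 1, in GABAergic cells (1.30, 0.861 to 1.89). Cacna1h was lower at the ends of V1 than in the middle (0.599, 0.473 to 0.761). Its GABAergic ratio was 1.27 (0.808 to 1.92), and 0.466 with first-round labels. A second mouse feature named Cacna1h had 1 UMI, and opossum CACNA1H had 88. The muscle channel CACNA1S had 10 opossum and 7 mouse UMIs, and the retinal channel Cacna1f had 4.

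The alpha2delta subunits bring channels to the membrane and to release sites. CACNA2D1, the target of gabapentin, had the lowest deep over upper ratio of the opossum members, at 2.04 in the deeper part against 3.75 in the upper, a ratio of 0.544 (0.496 to 0.596) that ranged from 0.523 to 0.555 across regions. In IT_A it was 1.87-fold higher (1.71 to 2.05). It was low in oligodendrocytes (0.555), Pvalb cells (0.541), Sst cells (0.559), L5PT (0.542) and oligodendrocyte precursors (0.661), was at 0.462 in GABAergic cells (0.386 to 0.550) and was 1.65-fold higher in neuronal cells (1.46 to 1.88). The top bins were 1.98-fold above the middle (1.73 to 2.28) and the bottom bins at 0.845 of it (0.720 to 0.991). In the mouse, Cacna2d1 gave the most UMIs of its group (2856) and was high in L2/3 (1.53, 1.39 to 1.67), with a deep over upper ratio of 0.767 (0.712 to 0.826, and 0.668 to 0.876 across regions) and a GABAergic ratio of 0.644 (0.522 to 0.788). It was 1.43-fold higher in neuronal cells (1.28 to 1.59) and low in endothelial cells (0.601), microglia (0.557) and Pvalb cells (0.616).

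CACNA2D3, an alpha2delta subunit known from presynaptic assembly, was highest in IT_B of the opossum and L4 of the mouse. The mouse gene spans chr14:28626892-29444600 on the minus strand (GRCm39). In mouse L4 its level was 3.88 against 1.57 in the other cells, a ratio of 2.47 (2.27 to 2.69) with 2.02 to 3.66 across regions. In opossum IT_B, whose median relative depth was 0.485, it was 5.71 against 2.31, a ratio of 2.47 (2.04 to 2.98) with 1.73 to 3.11 across regions. The mouse L4 cells had a median relative depth of 0.338. With cells thinned to 300 UMIs, 8.86% of mouse L4 cells (7.63 to 10.2) held a Cacna2d3 UMI against 3.43% of oligodendrocytes (2.10 to 5.24), and 13.6% of opossum IT_B cells (8.13 to 20.9) against 3.66% of oligodendrocytes (2.25 to 5.60). Before thinning these shares were 23.7%, 10.4%, 26.2% and 11.7%, at median depths of 1205, 1368, 1603 and 1077 UMIs.

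Its depth profile had a peak in the mouse and none in the opossum. The IT_B label was held by 126 opossum cells and the L4 label by 1969 mouse cells, and the part of these numbers in the profiles was not tested. Mouse Cacna2d3 rose from 1.81 in the first bin to 3.68 in the fourth and fell to 0.825 in the last, with a deep over upper ratio of 0.483 (0.444 to 0.525) and values of 0.382 to 0.581 across regions. Its ends were at 0.536 of the middle (0.479 to 0.600). The opossum profile stayed between 2.00 and 2.81 in all bins, with a deep over upper ratio of 0.856 (0.777 to 0.944). Mouse Cacna2d3 was low in L6CT (0.342, 0.290 to 0.401), Pvalb cells (0.307, 0.182 to 0.487), endothelial cells (0.472), oligodendrocytes (0.544), their precursors (0.621) and L5IT (0.661), and higher in Sst cells (1.52, 1.19 to 1.91, with region values of 0.696 to 2.82). Opossum CACNA2D3 was low in oligodendrocyte precursors (0.298, 0.142 to 0.549), oligodendrocytes (0.470), Pvalb cells (0.523) and astrocytes (0.570). It was at 0.671 in GABAergic cells (0.569 to 0.788), a call that the mouse gene did not reach (0.808, 0.662 to 0.977). It was higher in neuronal cells in both species, at 2.16 (1.86 to 2.53) and 1.63 (1.45 to 1.85).

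Cacna2d2 (GRCm39 chr9:107276811-107406543, plus strand), the alpha2delta subunit whose loss causes epilepsy and ataxia in mice, was measured in the mouse alone. It was 2.08-fold higher in GABAergic cells (1.37 to 3.05, and 1.62 to 2.40 across regions), beside 2.76-fold for Gad1. Its level was 1.37-fold higher in the deeper part (1.11 to 1.71), 1.23-fold among glutamatergic cells alone, and at 0.598 of the middle at the ends (0.456 to 0.786). Cacna2d4, with 51 UMIs, overlaps Lrtm2 on the opposite strand, which had 1019.

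**Figure D5:**
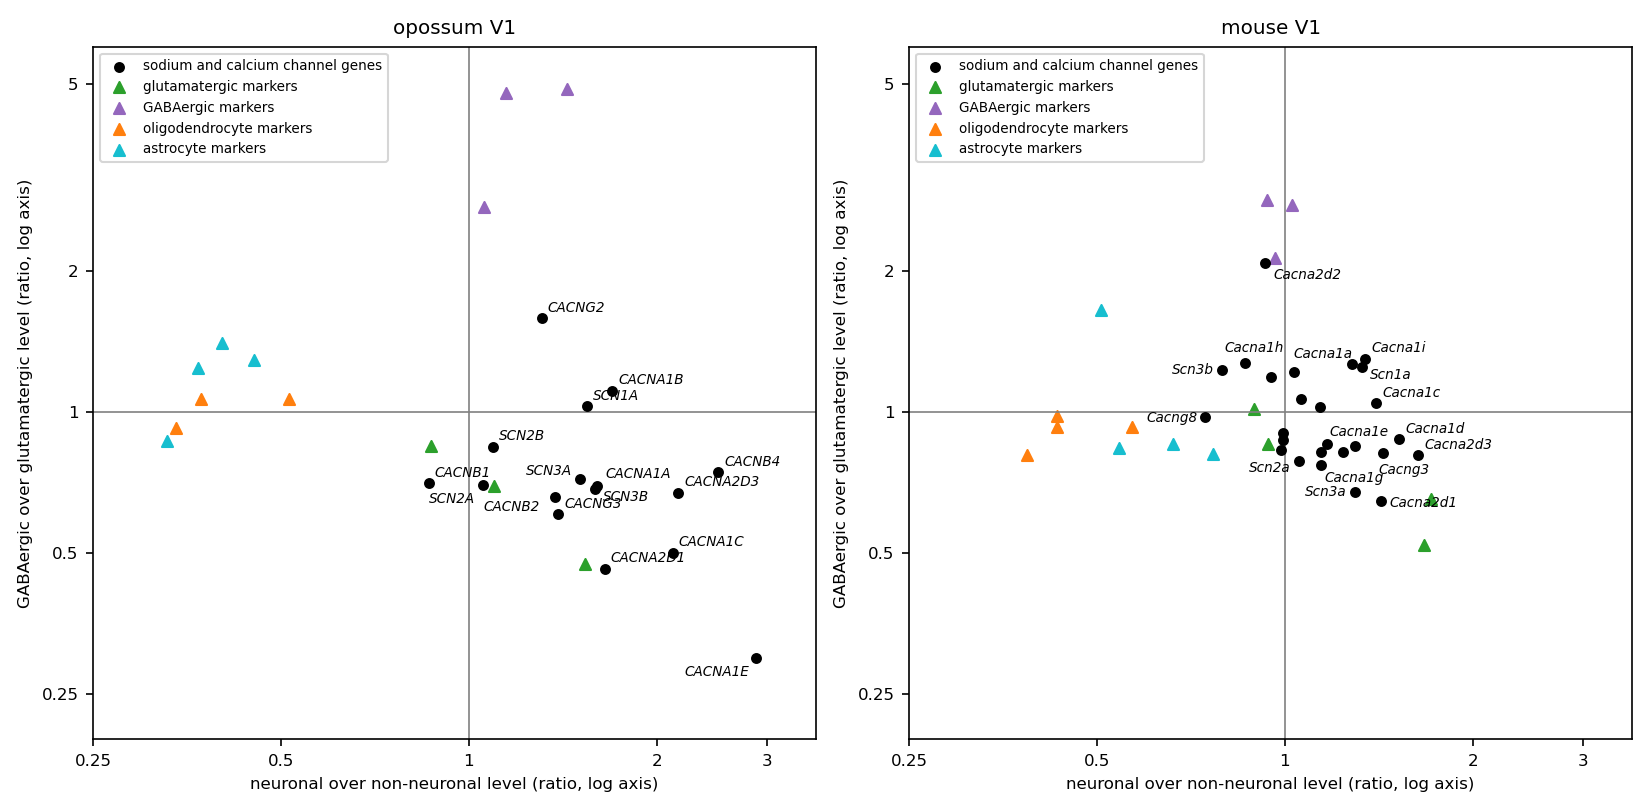
Ratio of the level in neuronal over non-neuronal cells (horizontal, log axis) against GABAergic over glutamatergic cells (vertical, log axis) for genes with at least 200 V1 UMIs, in the opossum and the mouse. Black points are the channel genes, most of them named, and triangles are marker genes of each cell type. Opossum CACNA1E lies farthest to the lower right, at 2.88 and 0.298, and mouse Cacna2d2 at 2.08 lies beside the GABAergic marker Slc32a1 at 2.12.

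Over all members, 13 of the 17 opossum genes were higher in neuronal cells and 0 lower, against 22.0% and 14.9% of all features. In the mouse, 10 of the 27 were higher and 2 lower, against 11.7% and 10.1%. Their median ratio was 1.55 in the opossum and 1.14 in the mouse, where all features stood at 0.997 and 0.989. Between GABAergic and glutamatergic cells, 12 opossum members were lower and 2 higher, against 21.1% and 16.3% of all features, with a median of 0.699 beside 1.00 for all features. In the mouse 4 were lower and 4 higher, against 21.2% and 16.5%, with a median of 0.901 beside 0.985. These mouse counts are near the background, and of the 8 calls only 4 had an interval that left out 1.

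Among the calcium channel beta subunits, which set the surface number and gating of the alpha1 subunits, CACNB4 gave the most UMIs in both species (3311 and 4826). The opossum gene was 2.51-fold higher in neuronal cells (2.24 to 2.81), with high levels in IT_B (2.01, 1.74 to 2.32) and IT_A (1.71, 1.60 to 1.84) and low ones in endothelial cells (0.329), astrocytes (0.390), oligodendrocytes (0.415) and L5NP (0.597, 0.364 to 0.923). It was at 0.743 in GABAergic cells (0.666 to 0.828), and its ends were at 0.697 of the middle (0.635 to 0.764), with 0.469 to 0.964 across regions. Mouse Cacnb4 was called in no comparison, and its neuronal over non-neuronal ratio was 1.17 (1.08 to 1.26).

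CACNB2, a beta subunit also of the heart channel, was higher in the upper part in both species, with deep over upper ratios that lay close together, at 0.720 (0.633 to 0.819) in the opossum and 0.720 (0.639 to 0.813) in the mouse. Region values were 0.674 to 0.893 and 0.638 to 0.821. The top bins stood above the middle by 2.29-fold in the opossum (1.84 to 2.87) and 1.70-fold in the mouse (1.40 to 2.06), while the bottom bins were at 1.27 (1.00 to 1.62) and 0.915 (0.745 to 1.13) of it. Mouse Cacnb2 was high in L2/3 (1.83, 1.58 to 2.11) and low in L6CT (0.630) and endothelial cells (0.537). Opossum CACNB2 was higher in neuronal cells (1.37, 1.16 to 1.63), at 0.658 in GABAergic cells (0.522 to 0.821), and low in IT_B (0.571), Pvalb cells (0.564), Sst cells (0.575) and oligodendrocytes (0.642).

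CACNB1 and CACNB3 made up the rest of the beta subunits. Opossum CACNB1 was at 0.704 in GABAergic cells (0.541 to 0.904) and low in L5PT (0.513, 0.279 to 0.866), and mouse Cacnb1 was high in L6IT (1.51, 1.07 to 2.07). Mouse Cacnb3 was higher in the upper part, at 1.05 in the deeper part against 1.54 in the upper (0.683, 0.618 to 0.755, and 0.607 to 0.708 across regions), and was low in L5IT (0.655, 0.387 to 1.04).

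The gamma group holds the TARPs, which carry AMPA receptors to synapses. CACNG2, or stargazin, gave the most UMIs of the group in both species (1208 and 1884). In the opossum it was 1.69-fold higher in Pvalb cells (1.42 to 2.00, between 1.47 and 1.91 across regions) and 1.58-fold higher in GABAergic than in glutamatergic cells (1.36 to 1.84), beside 4.78-fold for GAD1, and 1.31-fold higher in neuronal cells (1.13 to 1.52). The mouse gene was not called, with a GABAergic ratio of 1.07 (0.859 to 1.31).

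CACNG3, a TARP of the cortex and hippocampus, was called in the other direction in these cells of the opossum. It was low in Pvalb cells (0.501, 0.370 to 0.665), IT_B (0.321, 0.166 to 0.564) and oligodendrocyte precursors (0.588), and high in IT_A (1.63, 1.45 to 1.83), with a GABAergic ratio of 0.604 (0.488 to 0.741) and a neuronal one of 1.39 (1.19 to 1.62). By depth it went from 3.01 in the second bin to 0.645 in the sixth and 1.75 in the last, and the sixth bin was between 0.603 and 0.659 in each region. Its ends were 2.28-fold above the middle (1.89 to 2.78), and its deep over upper ratio was 0.559 (0.497 to 0.629). Mouse Cacng3 was high in L2/3 (1.54, 1.34 to 1.77), higher in neuronal cells (1.43, 1.22 to 1.69), low in Pvalb cells (0.540), astrocytes (0.591) and endothelial cells (0.631), and 1.54-fold higher at the top than in the middle (1.29 to 1.84), with 1.12 at the bottom (0.939 to 1.34).

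Of the other gamma genes, mouse Cacng7 was lower at the ends (0.798, 0.678 to 0.940). Mouse Cacng8 was low in L6CT (0.619, 0.377 to 0.971) and, with an interval that includes 1, in neuronal cells (0.744, 0.528 to 1.07), on 201 UMIs. It overlaps Gm44257 on the opposite strand, which had 2743. CACNG4 had 196 UMIs in the opossum, where it was low in L6CT (0.454, 0.243 to 0.783), and 101 in the mouse. Mouse Cacng5 had 40 UMIs and Cacng6 had 11, and opossum CACNG1 had 2.

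Genes whose products anchor, tune or work beside these channels were taken as a list of 28, of which 21 were features of the opossum and 28 of the mouse. Deep over upper, 1 of the 18 with enough UMIs in the opossum was higher and 3 were lower, and 1 and 4 of 25 in the mouse, beside the shares of all features given above (10.6% and 10.1%, 6.51% and 8.48%). Neuronal cells held higher levels of 8 in the opossum, with 1 lower, and of 6 in the mouse, with 0 lower, where all features had 22.0% and 14.9%, and 11.7% and 10.1%. GABAergic cells held higher levels of 1 opossum and 4 mouse genes, and lower levels of 7 and 2, where all features had 16.3% and 16.5% higher and 21.1% and 21.2% lower. STAC2, an adaptor of L-type channels, was higher in the deeper part, at 1.86 for the opossum and 1.58 for the mouse, and in GABAergic cells, at 2.32 and 1.80. In the opossum, on 211 UMIs, STAC2 was also the gene lower in neuronal cells, at 0.771 with an interval that includes 1 (0.561 to 1.07). The active zone genes RIMS1, RIMS2 and ERC2, whose products hold calcium channels near vesicles, were higher in neuronal cells of both species, at 2.57 and 1.66, 2.61 and 1.85, and 1.97 and 1.62. FGF14, which binds sodium channel alpha subunits, was at 1.56 and 1.94. NEDD4L, a ubiquitin ligase of sodium channels, and UNC79, of the sodium leak channel complex, were lower in GABAergic cells, at 0.603 and 0.686 and at 0.793 and 0.742.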

How the data were processed

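Stereo-seq profiled 1 section of each species, cut through a block that held more than 1 coronal slice. The authors deposited UMI counts per gene and segmented cell, made with the Stereo-seq Analysis Workflow after tissue images were aligned by hand, on a custom opossum genome with extended 3′ gene ends built on ASM229v1 and on mouse GRCm39. Use of strand in counting is not given in the sources used here. V1 regions, cell filters and subclass labels are the authors' own, and the labels were transferred by nearest neighbours.

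UMIs were summed over cells and divided by all UMIs of those cells (per 10000), with 95% exact intervals for counting error. Neuronal, GABAergic and depth ratios used features with at least 200 UMIs and a fold of 1.25. Subclass ratios used subclasses of at least 25 cells, 20 expected UMIs and a fold of 1.5. With 1 section per species no test was made, and V1 regions are not replicates. Relative depth ran from top to bottom of each region. For shares of cells, each cell was thinned to 300 UMIs, without the 156 opossum and 130 mouse cells under that number.

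Every member called in a comparison, the member of each subunit group with the most UMIs and members under 20 UMIs are named, except for some members that are counted in the totals but not reported here. The members, partner list and rules were chosen with earlier results of these data known. Identical runs were sought between calcium channel genes in GENCODE vM39 canonical transcripts. Alternatives changed the cells, limits, folds, labels and regions. Calculations used Python 3.11.15 with numpy 2.4.6, scipy 1.17.1, pandas 2.3.3, matplotlib 3.10.9 and shapely 2.1.2, and were tested on simulated data.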

Additional observations from a re-analysis of the deposited data

How the results depend on the processing

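The family level in the opossum was 41.8 as a mean over cells. For the deep over upper comparison in the opossum, the 1 member higher became 0 with the deepest bins set against the uppermost (3 equal depth ranges), with a fold of 1.5, with thinned cells and where the interval had to leave out 1, and was 0 to 0 with a V1 region left out. The 5 lower became 8 with 3 depth ranges and 3 with thinned cells, and were 5 to 8 with a region left out. In the mouse the 2 higher became 1 in glutamatergic cells alone and 0 with a fold of 1.5 or thinned cells, and the 6 lower became 1 and 3. Neuronal over non-neuronal, the opossum count of 0 lower became 1 with labels of the first round only and 2 at 50 UMIs, and the mouse count of 2 lower became 0 with first-round labels and 1 with the interval rule, and was 0 to 2 with a region left out. GABAergic over glutamatergic, the 2 higher in the opossum were 1 to 2 with a region left out. In the mouse the 4 higher became 2 with the interval rule, and the 4 lower became 7 with first-round labels, 2 with the interval rule and 5 to 8 with a region left out. Subclass pairs in the opossum fell from 14 higher to 4 with a fold of 2, and from 47 lower to 14 with that fold and 28 at 50 expected UMIs (31 to 44 with a region left out). Mouse pairs fell from 12 higher to 2 and 6, and from 26 lower to 5 and 13, under those limits. Direction turned in 5 single values: CACNA1B in opossum IT_B (0.813), Cacna1b in mouse Pvalb cells (1.21) and Cacna1h between mouse GABAergic and glutamatergic cells (0.466) with first-round labels, and CACNA1E in opossum L5PT (1.07) and Cacna1g between mouse GABAergic and glutamatergic cells (1.05) without region 1. With a region left out, these last 2 ranged from 0.360 to 1.07 and from 0.612 to 1.05. Of the other values of single genes under the alternatives, 826 kept their direction and moved by less than the SD between V1 regions, and 59 moved by more. The cause of these changes was not tested. The rule on the interval was chosen after seeing the data. No paired analysis was possible because each species is 1 section. Members under 200 UMIs were left out of the comparisons by depth and class.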

Other observations

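Outside V1, in the other cells of the same sections with at least 50 genes and 100 UMIs, the mix of channel genes was different. These cells span many areas and their labels were not used. The opossum slices were trimmed lateral to V1 and below the cortex surface before embedding, and the mouse slices were not. The areas outside V1 are therefore not matched between the species. Opossum CACNB4 was at 0.545 of its V1 level there (0.525 to 0.566), and mouse Cacnb4 at 0.68 (0.66 to 0.70). Opossum CACNA1H, a T-type channel with few UMIs in V1, was 2.38-fold higher outside (1.92 to 2.98), and mouse Cacna1h was 1.79-fold higher (1.63 to 1.97).

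For the beta subunit SCN4B, the opossum level outside V1, from 52 UMIs in V1, was 1.62 times that in V1 (1.23 to 2.19), and the mouse level of Scn4b was 0.503 times (0.457 to 0.554). Mouse Scn3b was 1.55-fold higher outside V1 (1.43 to 1.69), while opossum SCN3B was at 0.988 of its V1 level (0.876 to 1.12). Scn7a, a sodium channel relative of glia and sensory neurons that had 14 UMIs in mouse V1, was 3.42-fold higher outside (2.02 to 6.30).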
